A study of Mus musculus with 4 samples.

Results

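The early B cell factor (Ebf) family comprises 4 genes in these data, Ebf1, Ebf2, Ebf3 and Ebf4, found by their symbols among the 32286 features of the count tables of days 4 to 6 and the 32287 features of the day 11 table. The genes were described in gastruloids, which are aggregates of mouse embryonic stem cells (mESCs) that elongate and form derivatives of the germ layers in suspension. The cells came from the Zx1 mESC line, labelled wild type, and all 4 groups shared this line and genotype and a pulse of the Wnt agonist CHIR99021 (Chiron) on day 2. Cells of 4 culture times (days 4, 5, 6 and 11) were profiled by droplet single-cell RNA sequencing of transcript 3' ends. Basic fibroblast growth factor, vascular endothelial growth factor and ascorbic acid were added from day 4 to day 7, so the day 5 and day 6 gastruloids were collected during this treatment and the day 11 gastruloids after it. Each day is 1 library made from pooled gastruloids, and differences between days cannot be told apart from differences between libraries.

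After filtering, 6555, 6457, 5254 and 7854 cells remained on days 4, 5, 6 and 11, with median depths of 24229, 28072, 24745 and 11437 unique molecular identifiers (UMIs, counted molecules) per cell. Day 11 was therefore sequenced to a lower depth per cell than the other days. Levels are given as CPM (counts per 1000000), a gene's UMIs added up over a set of cells and divided by all UMIs of that set, and a positive cell holds at least 1 UMI. Shares of positive cells are also given after thinning each cell to 5000 UMIs where depths differ. Intervals are exact 95% intervals and cover counting error only. Without replicate libraries no test was possible, and a ratio of at least 2-fold was used as a description, beside the percentage of all tested genes that passed the same limit. Pairs of libraries shared between 5 and 23 cell barcodes.

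EBF proteins are transcription factors with a helix-loop-helix dimerization domain and a DNA-binding domain particular to the family. EBF1 is required for B lymphocyte development, EBF1, EBF2 and EBF3 act in neuronal differentiation and migration, and EBF1 and EBF2 act in adipose and stromal cells. In the tunicate Ciona, the single Ebf gene acts in the pharyngeal muscle lineage, and Ebf3 is used as a marker of cardiopharyngeal mesoderm in mouse. The cell classes examined were cells positive for Twist1 (a mesenchymal transcription factor), Elavl3 (a neuronal RNA-binding protein), Cdh5 (VE-cadherin of endothelium) and Myod1 (the myogenic determination factor).

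In GRCm38 (mm10, GENCODE vM21), Ebf1 (ENSMUSG00000057098) lies at chr11:44617317-45008091 on the plus strand and Ebf2 (ENSMUSG00000022053) at chr14:67233292-67430918 on the plus strand. Ebf3 (ENSMUSG00000010476) lies at chr7:137193673-137314445 on the minus strand and Ebf4 (ENSMUSG00000053552) at chr2:130295169-130370481 on the plus strand. The spans of Ebf1, Ebf2 and Ebf3 overlap 1, 5 and 2 other annotated genes, all on the opposite strand, and that of Ebf4 overlaps none.

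The 250 bases upstream of the RefSeq starts (GRCm38.p6) are shown because the members differ in base composition there. Ebf1, Ebf3 and Ebf4, 3 of the 4 members, matched, Ebf1 with 2 starts. Sequences are 5′ to 3′ on the strand of the gene, at chr11:44617850-44618099 and chr11:44619978-44620227 (plus) for Ebf1, chr7:137314446-137314695 (minus) for Ebf3 and chr2:130295689-130295938 (plus) for Ebf4. By these coordinates both Ebf1 windows and the Ebf4 window lie inside the GENCODE gene spans given above. Capitals mark a match to CANNTG, the E-box bound by basic helix-loop-helix factors.
Ebf1, first start: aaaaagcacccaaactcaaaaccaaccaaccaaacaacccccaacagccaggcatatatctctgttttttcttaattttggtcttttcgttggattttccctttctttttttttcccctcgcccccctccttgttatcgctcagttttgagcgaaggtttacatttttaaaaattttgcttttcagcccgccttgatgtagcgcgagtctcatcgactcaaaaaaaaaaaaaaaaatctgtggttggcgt
Ebf1, second start: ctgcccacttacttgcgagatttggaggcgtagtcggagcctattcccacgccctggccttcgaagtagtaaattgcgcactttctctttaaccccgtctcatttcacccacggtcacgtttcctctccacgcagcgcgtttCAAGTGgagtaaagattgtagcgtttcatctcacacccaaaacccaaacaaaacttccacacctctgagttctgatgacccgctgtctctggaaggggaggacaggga
Ebf3: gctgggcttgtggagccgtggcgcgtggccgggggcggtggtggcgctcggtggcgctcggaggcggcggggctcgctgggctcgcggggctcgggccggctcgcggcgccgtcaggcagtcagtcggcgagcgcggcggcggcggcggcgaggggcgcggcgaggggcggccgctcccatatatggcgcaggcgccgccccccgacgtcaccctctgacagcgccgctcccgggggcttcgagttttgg
Ebf4: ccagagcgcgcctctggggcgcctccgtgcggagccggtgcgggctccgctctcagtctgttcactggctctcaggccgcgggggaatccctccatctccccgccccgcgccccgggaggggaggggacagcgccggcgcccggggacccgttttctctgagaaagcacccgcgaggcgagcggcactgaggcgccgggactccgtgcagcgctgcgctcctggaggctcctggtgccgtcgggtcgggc
The Ebf3 and Ebf4 windows held 43 and 31 CpG dinucleotides with a GC content of 80% and 75.2%, against a median of 6 CpG and 52.4% over 32851 promoter windows of the same length. The Ebf1 windows held 9 and 14 CpG with a GC content of 40% and 52%. The palindromic EBF motif, made of the half-sites TCCC and GGGA with 2 free bases between them and read alike on both strands, was in none of these windows and in 256 of the 32851 (0.779%). CANNTG, which reads the same on both strands, was in 1 of the 4 windows and in 66.2% of all windows. These letter matches are descriptions of the windows and not of binding.

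All 4 Ebf genes were scarce at days 4 and 5 and had higher levels at day 6. Ebf1, the member with the widest range, was at 1.38 CPM (95% interval 1.22 to 1.56) on day 4, 1.30 on day 5, 25.2 (24.4 to 26.0) on day 6 and 86.6 (84.9 to 88.3) on day 11. These values rest on 270, 257, 3786 and 9873 UMIs. Ebf2 was at 0.313, 0.328, 4.13 and 12.6 CPM on the same days, Ebf3 at 1.90, 1.61, 9.22 and 22.1 CPM, and Ebf4 at 1.32, 0.766, 3.28 and 4.40 CPM. Each gene had its highest library level at day 11, and its day 4 and day 5 levels were its lowest.

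Between day 4 and day 5 no member passed 2-fold in either direction, where 28.0% of all tested genes did. Ebf4 was lower at day 5, with a ratio of 0.582 (0.473 to 0.713), and Ebf3 had a ratio of 0.848 (0.728 to 0.988), while the intervals of Ebf1 and Ebf2 included 1. Between day 5 and day 6, 4 of 4 members were at least 2-fold higher (18.3% of tested genes were). The day 6 to day 5 ratio was 19.5 (17.2 to 22.2) for Ebf1, 12.6 (9.75 to 16.5) for Ebf2, 5.72 (5.06 to 6.47) for Ebf3 and 4.29 (3.57 to 5.18) for Ebf4. In these libraries the step was larger for Ebf1 than for Ebf3. Their counting intervals did not overlap, but these hold no spread between libraries or cells, and the difference was not tested. Between day 6 and day 11, 3 of 4 members were at least 2-fold higher (19.9% of tested genes were), with ratios of 3.44 (3.31 to 3.57) for Ebf1, 3.04 (2.77 to 3.35) for Ebf2 and 2.40 (2.25 to 2.56) for Ebf3. Ebf4 was 1.34-fold higher (1.18 to 1.52).

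Shares of positive cells followed a different course from CPM for some members. Ebf1 was found in 3.45%, 3.22%, 20.8% and 31.1% of cells on days 4, 5, 6 and 11, and Ebf2 in 0.793%, 0.883%, 6.62% and 10.3%. Ebf3 was found in 5.05%, 4.52%, 18.7% and 16.2% of cells, and Ebf4 in 3.78%, 2.34%, 8.60% and 5.83%. The lower day 11 shares of Ebf3 and Ebf4 went with the lower depth of that library. After thinning, Ebf3 was found in 4.67% of day 6 and 9.51% of day 11 cells and Ebf4 in 1.87% and 2.40%. The highest count in 1 cell was 54 UMIs for Ebf1, 12 for Ebf2, 31 for Ebf3 and 4 for Ebf4, so Ebf4 was a gene of mostly single molecules per cell.

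**Figure D1:**
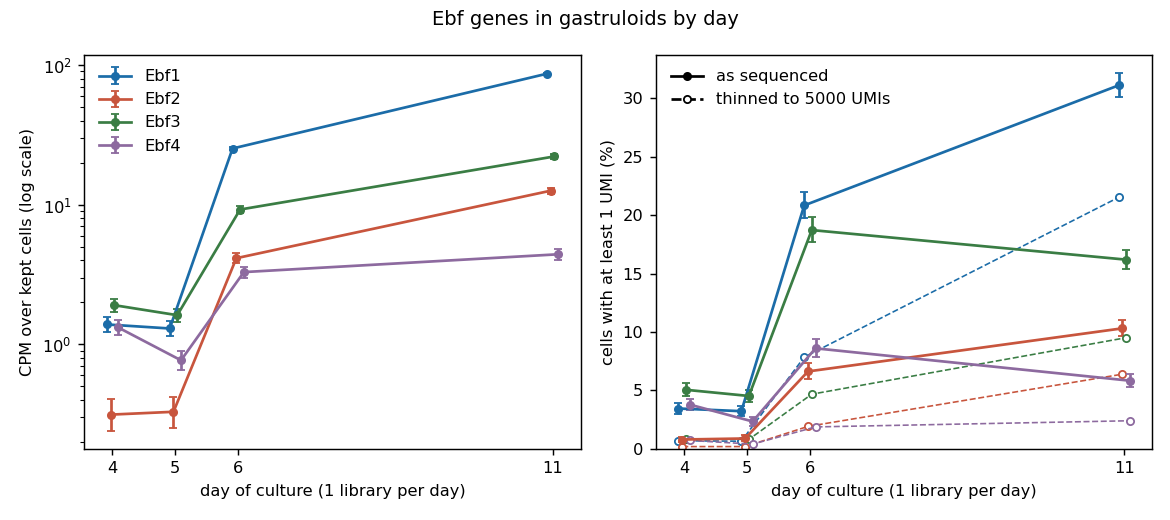
CPM and share of positive cells of Ebf1, Ebf2, Ebf3 and Ebf4 in the libraries of days 4, 5, 6 and 11, with exact 95% intervals as bars and thinned shares as dashed lines. Every member lies higher at day 6 than at days 4 and 5, and the Ebf3 share is lower at day 11 than at day 6 before thinning (16.2% against 18.7%) and higher after it (9.51% against 4.67%).

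The marker genes set how the classes can be read. Twist1 was found in 4255, 4469, 3924 and 3863 cells on days 4, 5, 6 and 11, which is most cells of days 4 to 6, so on those days Twist1 marks a broad set of cells. Elavl3 was found in 62, 149, 59 and 766 cells, Cdh5 in 17, 197, 428 and 424, and Myod1 in 9, 7, 1 and 191. Classes under 50 cells (Cdh5 at day 4 and Myod1 before day 11) were too small to describe by ratio. The classes overlapped: 79.2% of Cdh5-positive cells at day 5, 58.2% at day 6 and 15.6% at day 11 also held Twist1, as did 18.8% of Elavl3-positive and 31.9% of Myod1-positive cells at day 11. Clusters named from marker lists were used beside the single markers, and carry "-like" in their names.

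Free RNA can give a few UMIs of any gene in a droplet. The cardiomyocyte-like clusters, where these genes were scarce, were used as the low reference for Ebf1, Ebf2 and Ebf3, a choice made after their values had been seen. At day 11 their 1312 cells, with a median of 17481 UMIs, held Ebf1 at 1.35 CPM in 2.29% of cells, Ebf2 at 0.15 CPM in 0.229% and Ebf3 at 1.76 CPM in 2.67%. Ebf4 was at 3.04 CPM in 5.64% of these cells, against 5.83% of all cells of that day, and no low reference was set for it. At day 6 the cardiomyocyte-like cells held Ebf1 at 1.54 CPM (1.51% of cells), Ebf3 at 2.70 CPM (5.78%) and Ebf4 at 5.68 CPM (13.3%).

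As a class, the Elavl3-positive cells of day 11 held Ebf1, Ebf2 and Ebf3 at higher levels than the other cells. In the 766 Elavl3-positive cells Ebf1 was at 399.8 CPM, against 54.9 in the cells without Elavl3, a ratio of 7.28 (7.0 to 7.58). It was found in 70.0% of these cells against 26.9%, and in 60.3% against 17.3% after thinning. Ebf2 was at 50.1 against 8.77 CPM (ratio 5.71, 5.12 to 6.37) and Ebf3 at 96.8 against 14.6 CPM (6.65, 6.14 to 7.21). Ebf4 was at 3.34 against 4.51 CPM, with a ratio of 0.740 (0.509 to 1.04). Thus 3 of 4 members were at least 2-fold higher, where 13.7% of tested genes were. The Ebf1 level followed the Elavl3 count: it was 54.9 CPM in cells with 0 UMIs of Elavl3, 187 with 1, 394 with 2 or 3 and 616 with at least 4.

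The neuron-like clusters differed among themselves. The cluster led by Atoh1 (a proneural factor of dorsal hindbrain and spinal cord) and Crabp1 had 87 cells, of which 98.9% were Ebf1-positive, with Ebf1 at 1223 CPM, Ebf2 at 159.9 and Ebf3 at 184. The cluster led by Tubb3 and Btbd17 (251 cells) held Ebf1 at 585, Ebf2 at 129.9 and Ebf3 at 157 CPM. In the cluster led by Cartpt and Ina (304 cells) Ebf1 and Ebf3 were at 469 and 153 CPM, whereas Ebf2 was at 15.4 CPM. High Ebf2 was therefore a property of only 2 of the 3 neuron-like clusters. The neural progenitor-like cells of the same day (502 cells) held Ebf1 at 37.2, Ebf2 at 4.35 and Ebf3 at 3.35 CPM, against 629, 82.1 and 159 CPM in the 642 neuron-like cells.

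Within the Elavl3-positive cells, the Ebf genes went with different neuronal genes. In the 431 cells with Nhlh2, a helix-loop-helix factor of early postmitotic neurons, Ebf1 was at 687 CPM against 138 in the cells without it (4.96, 4.59 to 5.38), and Ebf2 at 85.5 against 17.9 (4.79). With Nhlh1 (198 cells) the Ebf2 ratio was 6.10 and the Ebf1 ratio 2.88, and with Neurod4 (96 cells) the Ebf2 ratio was 5.07 and the Ebf1 ratio 1.91. For Reln, the secreted glycoprotein reelin (193 cells), Ebf3 had the ratio 2.56 (2.25 to 2.90) and Ebf2 1.19 (0.974 to 1.44). Lhx1, a LIM homeodomain factor of interneurons (256 cells), gave ratios of 1.02, 0.991 and 0.895 for Ebf1, Ebf2 and Ebf3. In the 158 cells with Top2a, a gene of dividing cells, Ebf1 was at 71.8 CPM against 575 in the others (0.125, 0.110 to 0.141), Ebf2 had the ratio 0.171 and Ebf3 0.156. The Top2a-positive cells were also deeper, with a median of 18429 against 9663 UMIs, and the part of depth was not tested.

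At day 6 only 59 cells held Elavl3. Ebf2 was at 15.2 CPM in them against 3.98 in the others (3.82, 2.57 to 5.48), Ebf1 at 39.7 against 25.0 (1.59, 1.26 to 1.98) and Ebf3 at 8.33 against 9.23 (0.902, 0.524 to 1.45). Ebf2 was the 1 member of 4 at least 2-fold higher (9.88% of tested genes were). The Ebf1 ratio was 2.58 as a mean over cells and 4.28 against cells with none of the 4 markers. At day 5, the 149 Elavl3-positive cells held 8, 4, 6 and 5 UMIs of Ebf1 to Ebf4, too few to describe a difference.

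**Figure D2:**
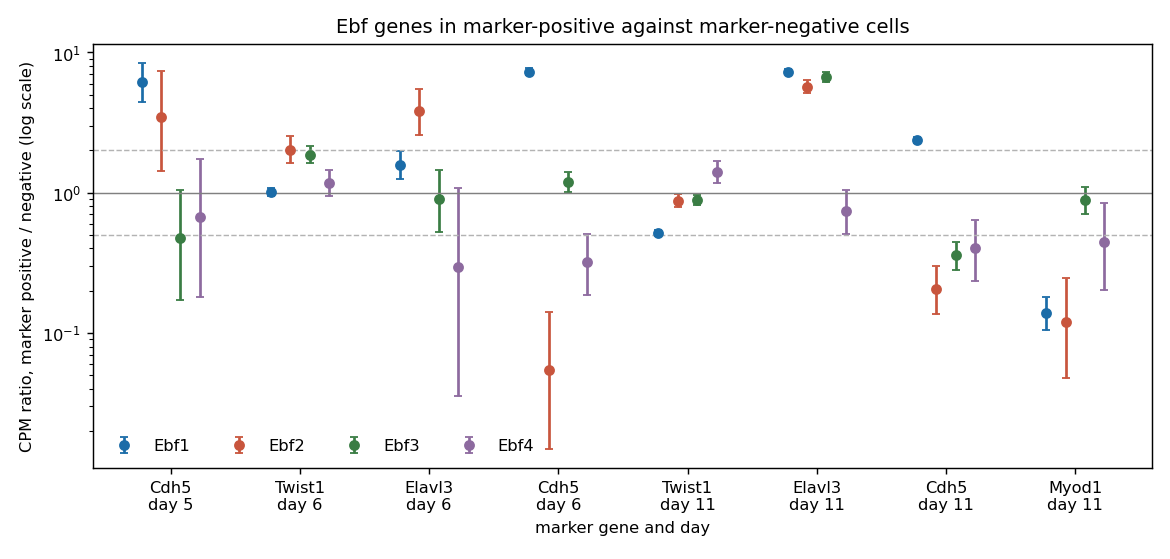
Ratio of the CPM of each Ebf gene in marker-positive cells to that in marker-negative cells on a log axis, by marker and day, with exact 95% intervals as bars, a solid line at 1 and dashed lines at 2-fold higher and lower. At day 11 Ebf1, Ebf2 and Ebf3 lie at 7.28, 5.71 and 6.65 for Elavl3, Ebf1 alone lies above 1 for Cdh5 (2.36), and Ebf3 alone has an interval that reaches 1 for Myod1 (0.887).

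Endothelial cells held mainly Ebf1. At day 6, Ebf1 was at 110.4 CPM in the 428 Cdh5-positive cells and 15.1 in the others, a ratio of 7.31 (6.85 to 7.79), and 62.9% against 17.1% of cells were positive. Ebf2 was nearly absent, with 4 UMIs (0.251 CPM against 4.59, ratio 0.0547, 0.0149 to 0.141). Ebf3 was at 10.8 against 9.03 CPM (1.20, 1.01 to 1.40) and Ebf4 at 1.13 against 3.54 CPM (0.319, 0.188 to 0.510). So 1 of 4 members was at least 2-fold higher (10.0% of tested genes) and 2 of 4 at least 2-fold lower (20.6%). With doublets left in, Ebf4 had the ratio 0.523 and no longer passed. The endothelium-like cluster of that day, led by Ctla2a and Cdh5 (356 cells), held Ebf1 at 127 CPM (121 to 133) and 0 UMIs of Ebf2.

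The same member was high in endothelial cells before and after day 6. At day 5 the 197 Cdh5-positive cells held Ebf1 at 6.63 CPM against 1.08 (6.14, 4.42 to 8.37), found in 22.8% against 2.60% of cells. Ebf2 was at 1.04 against 0.299 CPM (3.48, 1.43 to 7.33), but on 8 UMIs of which 5 were in 1 cell, and Ebf3 was at 0.780 against 1.65 CPM on 6 UMIs (0.474, 0.172 to 1.04). With doublets left in, the Ebf3 ratio was 0.503. At this day 2 of 4 members were at least 2-fold higher (5.69% of tested genes) and 1 of 4 at least 2-fold lower (18.6%). At day 4 an endothelium-like cluster of 32 cells was led by Tal1 and Etv2, early factors of the blood and vessel lineages. It held Ebf1 at 15 CPM (9.0 to 23.3) on 19 UMIs, the highest of the 14 clusters. The neural progenitor-like cluster of day 4 (116 cells) held Ebf1 at 9.81 CPM (6.67 to 13.9), and the 2 intervals overlapped. At day 11 Ebf1 was at 183 against 77.6 CPM (2.36, 2.24 to 2.49) and in 71.0% against 28.8% of cells. Ebf2, Ebf3 and Ebf4 had ratios of 0.207 (0.136 to 0.302), 0.357 (0.283 to 0.446) and 0.400 (0.235 to 0.639). Hence 1 of 4 was at least 2-fold higher (8.60% of tested genes) and 3 of 4 at least 2-fold lower (29.7%). With every barcode kept, the day 11 ratio of Ebf1 was 1.97 and that of Ebf4 0.52, and against cells with none of the 4 markers the ratio of Ebf3 was 0.723, all short of 2-fold.

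Twist1-positive cells held all 4 members. At day 6 the Twist1-positive cells held Ebf2 at 4.76 against 2.36 CPM (2.02, 1.62 to 2.55) and Ebf3 at 10.5 against 5.63 (1.87, 1.61 to 2.16). Ebf1 (25.3 against 25.0 CPM, 1.01, 0.940 to 1.09) and Ebf4 (3.41 against 2.91 CPM, 1.17, 0.949 to 1.46) had intervals that included 1. Ebf2 was the 1 of 4 members at least 2-fold higher (3.51% of tested genes), and 0 of 4 were at least 2-fold lower (8.59%). Ebf3 was also higher in Twist1-positive cells at day 4 (2.21 against 1.13 CPM, a ratio of 1.95) and day 5 (1.87 against 0.938 CPM, a ratio of 1.99), with both intervals above 1. These day 4 and day 5 levels were all below the 2.70 CPM of the cardiomyocyte-like cells of day 6. Those cells are of another library, so their level sets no background for days 4 and 5. The mesenchyme-like cluster of day 4 (604 cells) held Ebf3 at 4.02 CPM (3.22 to 4.97), a ratio of 2.45 to the other cells. The day 6 ratios depended on how the class was defined. For Ebf2 the ratio was 1.41 as a mean over cells and 0.595 in the clusters named mesenchyme-like. One of these clusters is led by Sfrp5 and Alcam and has Shox2 and Gata4, both also known from the developing heart, among its 10 leading genes. When this cluster joined the reference cells, a setting added with the values known, the ratio was 0.947 (0.704 to 1.25). In the named clusters Ebf4 was the 1 member past 2-fold higher (2.10, 1.72 to 2.56), and without the Sfrp5 cluster its ratio was 1.83. When only cells with exactly 1 of the 4 markers were compared, the reference was cells with Elavl3, Cdh5 or Myod1 alone, and cells with no marker were left out. The Ebf4 ratio was then 4.42 (2.01 to 12.1) and that of Ebf1 0.175. Against cells with none of the 4 markers the Ebf1 ratio was 2.73.

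At day 11, 0 of 4 members were at least 2-fold higher in Twist1-positive cells (2.84% of tested genes) and 0 of 4 at least 2-fold lower (7.77%). Ebf1 was at 59.1 against 115 CPM (0.516, 0.495 to 0.538), Ebf2 at 11.7 against 13.4, Ebf3 at 20.8 against 23.5 and Ebf4 at 5.14 against 3.65 (1.41, 1.18 to 1.69). The cells without Twist1 included most Elavl3-positive and Cdh5-positive cells. Against the 2889 cells with none of the 4 markers, which held Ebf1 at 39.6, Ebf2 at 7.86, Ebf3 at 11.6 and Ebf4 at 4.28 CPM, the ratios were 1.49, 1.5, 1.80 and 1.20. This reference was chosen after the data had been seen. In the clusters named mesenchyme-like the ratio was 2.17 for Ebf2 and 1.75 for Ebf3, on the other side of 1 from the Twist1 class. In cells with exactly 1 marker the ratios were 0.171, 0.463, 0.366 and 2.27 for Ebf1 to Ebf4. The reference there was cells with Elavl3, Cdh5 or Myod1 alone, without the cells that held no marker.

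Among clusters outside the neuronal and endothelial classes, Ebf2 and Ebf3 were highest in groups led by Scx, the tendon factor scleraxis. At day 11 the unnamed cluster led by Angptl4 and Scx (90 cells) held Ebf2 at 46.6 CPM and Ebf3 at 73.2, and the mesenchyme-like cluster led by Fibin and Scx (963 cells) held them at 32.3 and 49.5 CPM. Ebf1 was at 47.9 and 66.8 CPM in these clusters and at 154 CPM in the pericyte- or smooth muscle-like cluster led by Colec11 and Gal (434 cells). At day 6 the highest Ebf2 was in the unnamed cluster led by Osr1 and Wt1 (296 cells, 14.6 CPM), factors of intermediate and lateral mesoderm, and the highest Ebf3 in the unnamed cluster led by Rgs5 and Phox2a (337 cells, 21.6 CPM). The presomitic or somitic mesoderm-like cluster of that day, led by Meox1 and Ube2c (551 cells), held Ebf1 at 41.4 CPM and Ebf2 at 9.60.

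**Figure D3:**
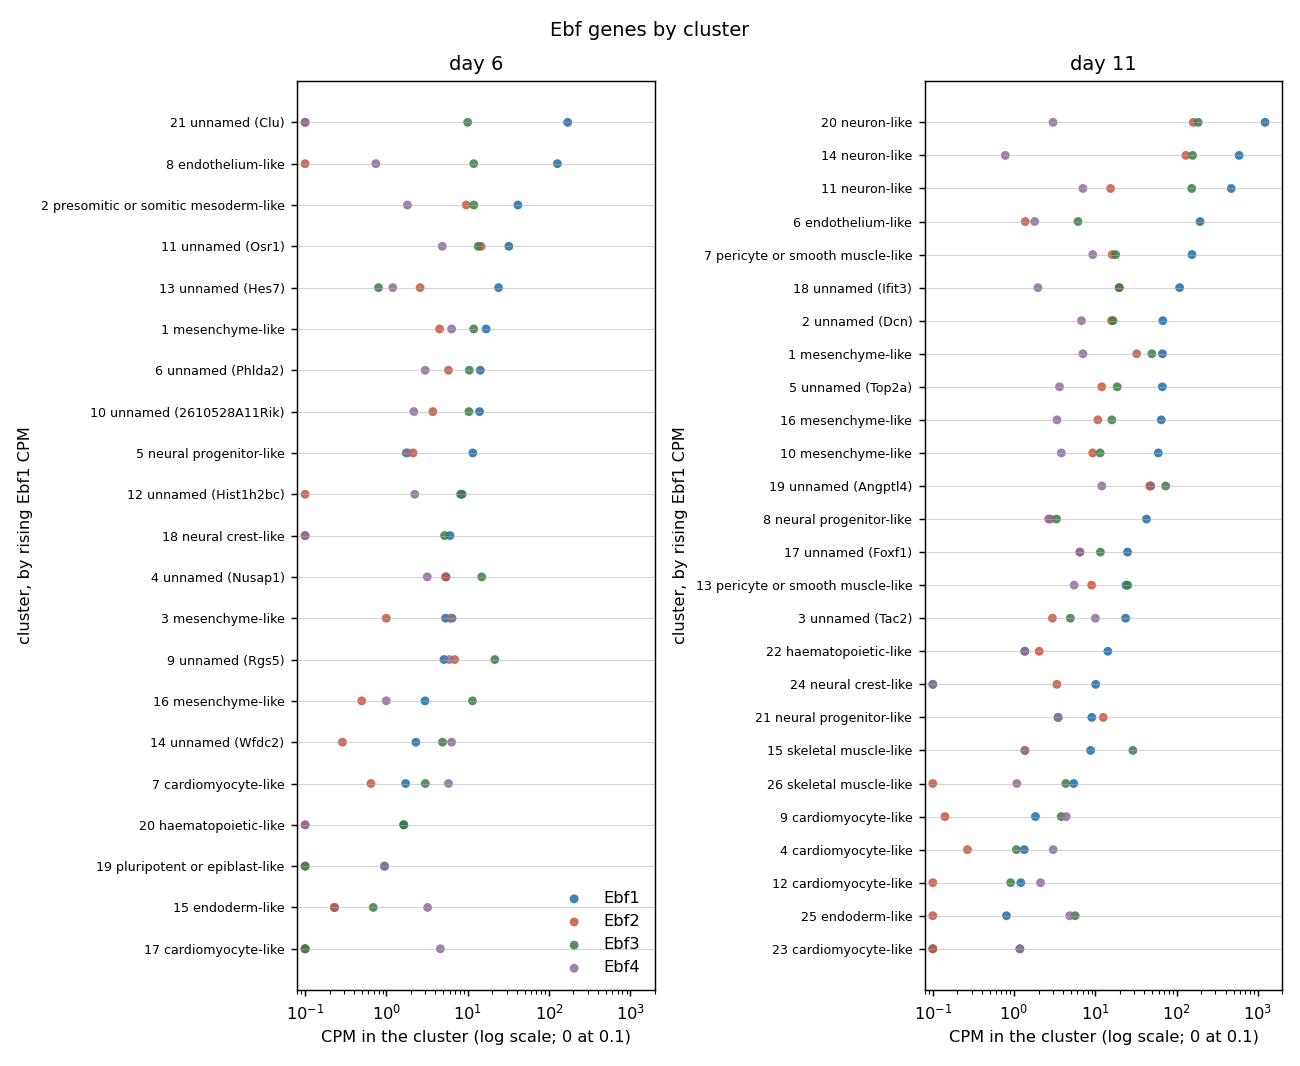
CPM of the 4 Ebf genes (points) in each cluster of days 6 and 11 on a log axis, with clusters ordered by Ebf1 and values of 0 drawn at 0.1. The 3 neuron-like clusters of day 11 are high in Ebf1 and Ebf3, the endothelium-like clusters of both days in Ebf1 with Ebf2 at 0 UMIs (day 6) or 1.37 CPM (day 11), and the cardiomyocyte-like clusters are low in Ebf1, Ebf2 and Ebf3.

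Muscle cells held Ebf3 without high Ebf1 or Ebf2. In the 191 Myod1-positive cells of day 11, Ebf3 was at 19.7 CPM against 22.2 in the others (0.887, 0.710 to 1.10), whereas Ebf1 was at 12.4 against 89.7 (0.138, 0.104 to 0.180) and Ebf2 at 1.55 against 13.0 (0.119, 0.0478 to 0.246) on 7 UMIs. Ebf4 was at 1.99 against 4.50 CPM (0.443, 0.201 to 0.847). Thus 0 of 4 members were at least 2-fold higher (4.36% of tested genes) and 3 of 4 at least 2-fold lower (34.2%). With every barcode kept the Ebf4 ratio was 0.55, short of 2-fold, and against cells with none of the 4 markers the Ebf3 ratio was 1.71 (1.34 to 2.15). Ebf3 was found in 31.9% of Myod1-positive and 15.8% of other cells, but the median depths were 22466 and 11293 UMIs, and after thinning the shares were 9.17% and 9.52%. The cardiomyocyte-like cells had a share of 2.67%, unthinned and at a median of 17481 UMIs. That reference was chosen after its values had been seen, so a share above it is a description only.

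The 2 skeletal muscle-like clusters differed in Ebf3. It was at 28.9 CPM in the 230 cells led by Car3 and Msc (musculin, or MyoR, a factor of branchiomeric muscle precursors) and at 4.33 CPM in the 38 cells led by Mylpf and Tnnc2, which encode contractile proteins. This second cluster is small and its level low, so few UMIs stand behind it, and the difference was not tested. The same order was seen within the Myod1-positive cells, which come from the same library and are not independent of these clusters. Ebf3 was at 29.7 CPM in the 88 cells with Pax7, the satellite cell factor, against 9.73 without it (3.05, 1.86 to 5.19), and the ratio was 2.40 for Msc (87 cells), 1.88 for Myf5 (54 cells) and 2.73 for Eya1 (52 cells). With Myog (132 cells), which marks differentiating myoblasts, Ebf3 was at 15.4 against 31.7 CPM (0.485), and with Myh3 (62 cells), embryonic myosin heavy chain, at 5.26 against 27.0 (0.194, 0.0812 to 0.402). With the dividing-cell gene Birc5 (106 cells) it was at 27.6 against 6.94 CPM (3.98, 2.15 to 8.04).

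**Figure D4:**
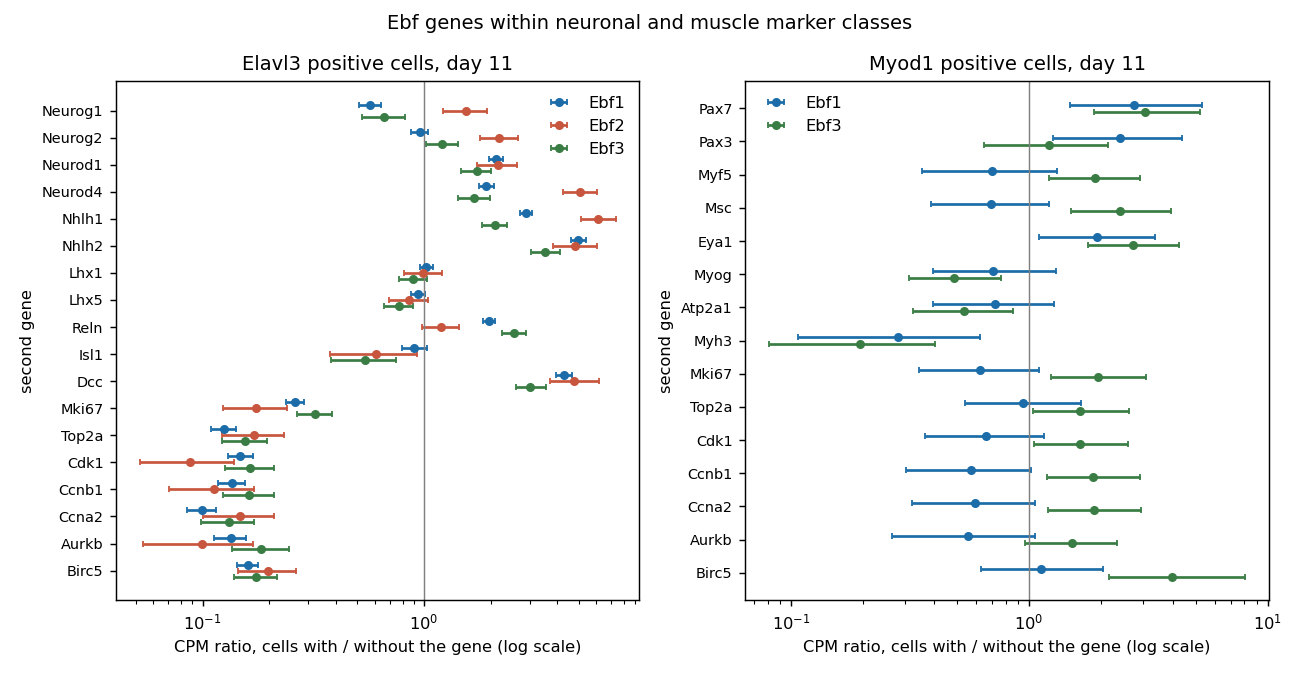
Ratios of Ebf CPM in cells with and without a second gene (1 gene each row), inside the Elavl3-positive (left) and Myod1-positive (right) cells of day 11, with exact 95% intervals on a log axis. In Myod1-positive cells the Ebf3 ratio is 3.05 for Pax7 and 0.194 for Myh3, and in Elavl3-positive cells the Ebf1 ratio is 4.96 for Nhlh2 and 0.125 for Top2a.

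Tbx1, Isl1 and Nkx2-5 are examples picked from the list of genes of cardiopharyngeal mesoderm, the common source of heart and branchiomeric muscle. The other genes of that list are not described within the Twist1-positive cells, and the examples do not stand for it. Over all cells of day 6, 1 of its 10 genes was at least 2-fold higher and 2 lower with Ebf3 (1.67% and 5.78% of all tested genes). With Ebf1, 2 were higher and 2 lower (4.72% and 8.75%). Within the Twist1-positive cells of day 6, Ebf3 was at 28.6 CPM in the 79 cells with Tbx1 and 10.1 in the others (2.85, 2.22 to 3.60), while the Ebf1 ratio was 0.98. With Isl1, Ebf1 was at 14.8 against 34.9 CPM (0.423). Within the Twist1-positive cells of day 11, the 512 cells with Nkx2-5, a cardiac factor, held Ebf1 at 6.91 against 73.7 CPM (0.0937), and the ratios of Ebf2 and Ebf3 were 0.0865 and 0.269. These cells were thus low in all 3 of these members.

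Ebf1, Ebf2 and Ebf3 were detected together more often than independent detection would give, which the pairs with Ebf4 were not. Expected numbers were computed from the share of positive cells of each gene within 10 bins of depth. At day 11 Ebf1 and Ebf2 were found together in 473 cells, 1.83 times the expected number (1.67 to 2.01). Ebf1 and Ebf3 shared 696 cells (1.73, 1.60 to 1.86) and Ebf2 and Ebf3 shared 384 (2.84, 2.56 to 3.14). The pairs with Ebf4 had ratios of 0.89, 0.74 and 1.10 with Ebf1, Ebf2 and Ebf3. At day 6 the ratios were 2.12 for Ebf1 with Ebf2 (165 cells), 1.41 for Ebf1 with Ebf3 (307 cells) and 1.96 for Ebf2 with Ebf3 (132 cells), and 0.71 for Ebf1 with Ebf4 (0.55 to 0.90). On days 4 and 5 the pairs shared between 0 and 22 cells. The ratio was also computed within classes, whose cells hold the genes at different levels.

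Within the Elavl3-positive cells of day 11 the ratios were 1.28 (1.11 to 1.46) for Ebf1 with Ebf2, 1.27 (1.13 to 1.41) for Ebf1 with Ebf3 and 1.54 (1.31 to 1.78) for Ebf2 with Ebf3. Of the Ebf2-positive cells among these 91.5% held Ebf1, as did 90.8% of the Ebf3-positive ones. Ebf1, Ebf2 and Ebf3 without Ebf4 were found in 161 of 766 Elavl3-positive cells (21.0%) and in 86 of 3863 Twist1-positive cells (2.23%), and a further 4 and 8 cells held all 4 members. The ratios in the Twist1-positive cells were 1.58, 1.57 and 2.48. In Cdh5-positive cells Ebf1 and Ebf3 were together in 75 cells at day 6 (1.04, 0.82 to 1.30) and 40 at day 11 (0.96), close to the expected numbers. In Myod1-positive cells they shared 10 cells (1.59, 0.76 to 2.92).

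The combinations per cell differed among some classes, which share cells and differ in depth, and these shares were not thinned. At least 1 Ebf gene was found in 12.3%, 10.4%, 42.1% and 44.9% of all cells on days 4, 5, 6 and 11. At day 11 the share was 77.4% of Elavl3-positive, 76.7% of Cdh5-positive, 46.1% of Twist1-positive and 38.7% of Myod1-positive cells. Ebf1 without another member was the most common state of Cdh5-positive cells (250 of 424, 59.0%), and at day 6 it was found in 187 of 428 (43.7%) with a further 72 (16.8%) holding Ebf1 and Ebf3. Among Myod1-positive cells Ebf3 alone was found in 47 of 191 (24.6%) and Ebf1 alone in 8. Among Elavl3-positive cells 27.3% held 1 member, 27.5% held 2 and 22.1% held 3.

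**Figure D5:**
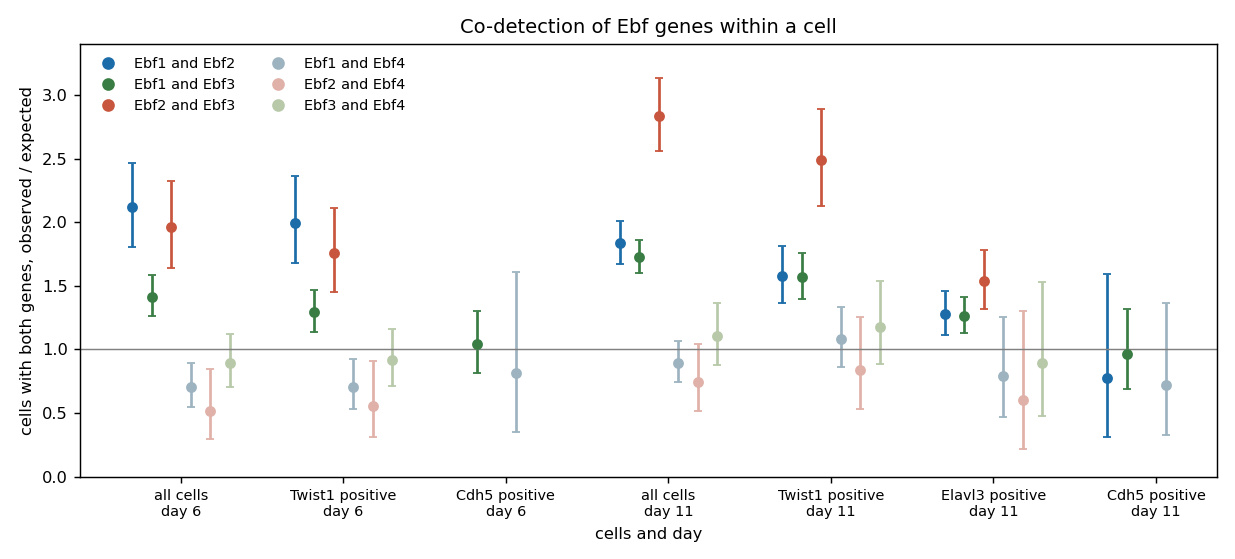
Observed over expected numbers of cells with a pair of Ebf genes at days 6 and 11, over all cells and within marker classes, with exact 95% intervals as bars and a line at 1 (pairs expected in fewer than 5 cells are not drawn). Pairs among Ebf1, Ebf2 and Ebf3 lie above 1 over all cells (1.41 to 2.84), and over the same cells pairs with Ebf4 lie between 0.52 and 1.10.

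Lists of genes known from EBF biology were compared between cells positive and negative for each member at day 11. Of 11 tested neuronal genes, 10 were at least 2-fold higher with Ebf1 (median ratio 6.75, against 1.07 over all tested genes), 10 with Ebf2 (9.92 against 1.06) and 10 with Ebf3 (6.18 against 1.06), and none was lower. With Ebf4, 0 were higher and 5 lower (0.54 against 1.02). The shares of all tested genes at least 2-fold higher were 7.64%, 5.95%, 5.90% and 2.35% for Ebf1 to Ebf4, and those at least 2-fold lower 8.81%, 11.7%, 7.50% and 5.34%. Neurod4, a proneural factor, was at 26.8 CPM with Ebf2 and 0.472 without it (56.8, 41.8 to 78.6). Dcc, the netrin receptor, was at 52.5 against 5.63 CPM for Ebf1 (9.32). Since Ebf1, Ebf2 and Ebf3 share cells, their lists are not independent of each other.

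The muscle and cardiopharyngeal lists set Ebf3 apart from Ebf1 at day 11. Of 7 tested skeletal muscle genes, 2 were at least 2-fold higher with Ebf3 and 0 lower (median 1.30), while 5 were lower with Ebf1 (0.22), 5 with Ebf2 (0.27) and 4 with Ebf4. Of 10 cardiopharyngeal genes, 5 were higher and 1 lower with Ebf3 (1.77), 2 higher and 3 lower with Ebf1, 1 higher and 2 lower with Ebf2, and 0 higher and 2 lower with Ebf4. Msc was at 23.5 against 7.08 CPM for Ebf3 (3.32, 2.94 to 3.75) and had the ratio 0.339 for Ebf1. Myf5 was at 4.42 against 1.31 CPM for Ebf3 (3.37) and had the ratio 0.441 for Ebf1. Pax7 was at 17 against 6.26 CPM for Ebf3 (2.72) and Tbx1, a factor of pharyngeal mesoderm, at 2.72 against 1.05 (2.59). Nkx2-5 was at 4.49 against 53.6 CPM for Ebf1 (0.0837).

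Few genes of the other lists passed 2-fold. Of 10 adipose and stromal genes, 1, 2, 1 and 0 were at least 2-fold higher with Ebf1 to Ebf4. Of all tested genes 7.64%, 5.95%, 5.90% and 2.35% were, so the counts for Ebf1 and Ebf3 were near that share. In the same list 1 gene was at least 2-fold lower with Ebf1 and 0 with the other members. Among the higher genes were Lepr, the leptin receptor, at 3.36 against 0.915 CPM for Ebf2 (3.67) and Runx2, the osteoblast factor, at 7.12 against 2.78 (2.56). Of 11 cofactors and antagonists of EBF proteins, Tcf12 with Ebf2 alone passed 2-fold (275 against 131 CPM, 2.09, 2.01 to 2.18). None of the proliferation genes passed it for any member. Of 7 genes of the B lineage, 2 could be tested, Cd79b at 1.37 CPM with Ebf1 against 2.57 without it (0.531) and Vpreb1 at 1.42 against 0.947 (1.5). Cd79b was lower past 2-fold with Ebf2 (0.125) and Ebf3 (0.278), on 3 and 13 UMIs in the positive cells, and Vpreb1 with Ebf4 (0.327), on 3 UMIs. Pax5, Igll1 and Pou2af1 were among those under 20 UMIs.

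At day 6 the neuronal list stood highest with Ebf2. Of 11 tested genes, 8 were at least 2-fold higher with Ebf2 (median 6.67 against 0.98 over all tested genes), 5 with Ebf1 (1.85), 5 with Ebf3 (1.42) and 1 with Ebf4 (0.42). In the same list 2 genes were at least 2-fold lower with Ebf1, 1 with Ebf2, 0 with Ebf3 and 6 with Ebf4. The shares of all tested genes at least 2-fold higher at day 6 were 4.72% for Ebf1, 2.14% for Ebf2, 1.67% for Ebf3 and 2.52% for Ebf4, and those at least 2-fold lower 8.75%, 11.8%, 5.78% and 4.87%. Neurod4 had the ratio 45.1 with Ebf2. In the cardiopharyngeal list Tbx1 was at 2.18 against 0.687 CPM for Ebf3 (3.18, 2.26 to 4.44), the 1 gene of 10 at least 2-fold higher with that member, and 2 were lower. Of 4 tested skeletal muscle genes of day 6, 1 was higher and 2 lower with Ebf3 (median 0.636). Of 11 cofactors and antagonists of EBF proteins at day 6, 1 was at least 2-fold higher and 1 at least 2-fold lower with Ebf1 (median 1.13). The higher one was Foxo1, a forkhead factor, at 15.1 against 6.23 CPM (2.42).

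The members were also set beside all genes by their pattern over the 76 clusters of the 4 days. The likeness is the Pearson correlation of log2(CPM + 1), given as a description because clusters of a day share a library and its depth. Ebf1, Ebf2 and Ebf3 had correlations with each other of 0.781 (Ebf1 with Ebf2), 0.773 (Ebf1 with Ebf3) and 0.775 (Ebf2 with Ebf3), and with Ebf4 of 0.338, 0.519 and 0.499. Over the 26 clusters of day 11 alone these were 0.841, 0.778, 0.810, 0.201, 0.277 and 0.388. Among 13705 genes the closest to Ebf1 were Pcdhb16 (0.815), Pcdhb11 and Clip2, those closest to Ebf2 were Pcdhb2 (0.846) and Pcdhb5, those closest to Ebf3 were Ip6k2 (0.824) and Pcdhb19, and the closest to Ebf4 was Camk1g (0.797). The Pcdhb genes encode clustered protocadherins, cell adhesion proteins of neurons.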

How the data were processed

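The authors deposited UMI counts per gene and cell for 1 library each of days 4, 5, 6 and 11, unnormalized. The submitters' processing notes name Cell Ranger 3.1.0 and mm10. The matrix headers of days 4, 5 and 6 also name 3.1.0, while the day 11 header names software 6.0.1. Differences between day 11 and the other days therefore cannot be told apart from this difference in software. The libraries hold 227398362, 236714826, 182150138 and 149169498 UMIs.

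Barcodes (7324, 7794, 6628 and 9584) were kept with more than 200 genes, under 20% mitochondrial and over 5% ribosomal protein UMIs, and UMIs within 3 scaled median absolute deviations. The 8% with the highest doublet scores, from simulated doublets, were removed. Cells were clustered on 2000 variable genes without the 4 Ebf genes, 30 principal components, 20 neighbours and Leiden resolution 1 (leidenalg 0.10.2). A cluster was named where at least 3 markers of a list were raised and left unnamed otherwise. CPM, percent and ratio values were computed from the deposited counts with exact Poisson, Clopper-Pearson and conditional binomial intervals (scipy 1.17.1, Python 3.11.15). Genes entered the share past 2-fold with at least 20 UMIs in both sets of cells together, and classes needed 50 cells. Ratios and intervals were tested on simulated data. Thinned shares are expectations at 5000 UMIs over cells of at least that depth.

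Genes named are the members, the 4 markers, list genes, the most alike genes and the 2 leading genes of the highest clusters. The members and the lists were chosen with earlier results of these data known. Alternatives covered cell filters, doublets, weighting of cells, the total behind CPM, size factors, marker limits, named clusters, gene filters, thinning depth and cluster resolution. The annotation was GENCODE vM21, and promoter windows came from RefSeq (GRCm38.p6), where 3 of the 4 members matched. Results for a few genes of the lists and of the pattern comparison are not reported here.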

Additional observations from a re-analysis of the deposited data

Results flagged for a closer look

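The ratio of Ebf2 CPM in Cdh5-positive to Cdh5-negative cells lay on opposite sides of 1 on different days. It was 3.48 at day 5, 0.0547 at day 6 and 0.207 at day 11, from 1 library a day, and the difference between days was not tested. The day 5 value rests on 8 UMIs, 5 of them in 1 cell, and the day 6 value on 4 UMIs. In the endothelium-like cluster of day 5, used in place of Cdh5-positive cells, the ratio was 1.22.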

How the results depend on the processing

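No paired analysis was possible because each day is 1 library, and for the same reason no replicate could be left out. Of 1173 alternative values for 294 results, 945 stayed within the counting interval of the main value or within 1.5 times the main count, and the others moved. A ratio past 2-fold turned to the other side of 1 for Ebf2 in the mesenchymal class of day 6, 2.02 by Twist1, 0.595 in the clusters named mesenchyme-like and 0.947 without the one led by Sfrp5 and Alcam (chosen after seeing the data). Ratios under 2-fold whose interval excluded 1 turned as well. In named clusters of day 11 Ebf2 went from 0.876 to 2.17 and Ebf3 from 0.886 to 1.75 for Twist1. Against cells with none of the 4 markers Ebf1, Ebf2 and Ebf3 went to 1.49, 1.5 and 1.80 at that day. With exactly 1 marker Ebf1 went from 1.42 to 0.206 for Twist1 at day 5. In that setting the reference cells also held exactly 1 marker, so the reference changed along with the class. As a mean over cells Ebf3 went from 1.20 to 0.976, which has no interval of its own, for Cdh5 at day 6. Leaving mitochondrial and ribosomal protein genes out of the total gave CPM on days 4, 5, 6 and 11 of 2.19, 2.01, 36.1 and 119 for Ebf1, 0.496, 0.508, 5.91 and 17.3 for Ebf2, 3.01, 2.5, 13.2 and 30.5 for Ebf3 and 2.09, 1.19, 4.70 and 6.07 for Ebf4, with a day 11 to day 6 ratio of Ebf1 of 3.31. Keeping every barcode over 200 genes gave day 11 CPM of 83.6, 11.5 and 19.9 for Ebf1, Ebf2 and Ebf3 and day 11 to day 6 ratios of 2.70 for Ebf2 and 2.22 for Ebf3. The mean over cells gave Ebf1 23.5 at day 6 and 104.7 at day 11, Ebf2 17.1 at day 11, Ebf3 1.70, 10.0 and 27.6 at days 4, 6 and 11 and Ebf4 3.81 and 5.10 at days 6 and 11, with a day 6 to day 5 ratio of 16.4 for Ebf1 and day 11 to day 6 ratios of 4.44, 3.88 and 2.76 for Ebf1, Ebf2 and Ebf3. Size factors gave 3.19 and 2.23 for Ebf1 and Ebf3 in the latter comparison.

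Counts of members past 2-fold moved as follows. Lower in Cdh5-positive cells of day 5 there were 0 of 4 with doublets left in, with the mean over cells and against cells with none of the 4 markers (a reference chosen after seeing the data), and at day 6 there was 1 with every barcode kept and with doublets left in. Higher in Cdh5-positive cells there was 1 at day 5 in named clusters, 2 at day 6 against cells with none of the 4 markers and 0 at day 11 with every barcode kept. In Twist1-positive cells of day 6, 0 were higher with the mean over cells, without mitochondrial and ribosomal protein genes and in named clusters without the one led by Sfrp5 and Alcam, 3 were higher against cells with none of the 4 markers, and 1 was lower in cells with exactly 1 marker and in named clusters. At day 11, 1 was higher in cells with exactly 1 marker and in named clusters, and 1 was lower with the mean over cells and with at least 2 UMIs of Twist1, and 3 with exactly 1 marker. In Elavl3-positive cells of day 6, 2 were higher with the mean over cells and against cells with none of the 4 markers. The cause was not tested for any of these. With exactly 1 marker, day 6 Elavl3-positive cells fell under 50 and gave no value.

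With at least 2 UMIs of each Ebf gene the co-detection ratios at day 6 were 2.49, 1.83 and 3.35 for Ebf1 with Ebf2, Ebf1 with Ebf3 and Ebf2 with Ebf3 and 0 for Ebf1 and Ebf2 with Ebf4, and at day 11 they were 2.58, 2.55, 5.15, 0 for Ebf2 with Ebf4 and 0.714 for Ebf3 with Ebf4. At Leiden resolution 0.5 the highest cluster level was 679 for Ebf1 and 87.6 for Ebf2 at day 11 and 2.81 and 13.9 for Ebf3 at days 4 and 6, and at resolution 1.5 it was 216 for Ebf3 at day 11. The lower depth of day 11 limits the detection of all members there.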

Other observations

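At day 6, an unnamed cluster of 16 cells led by Clu and Wfdc2 held Ebf1 at 169.6 CPM (98.8 to 272), at a median depth of 5957 UMIs per cell. At day 11, the haematopoietic-like cells (55 cells, led by C1qb and Fcer1g) held Ebf1 at 14.2 CPM, and the unnamed cluster with Ifit3 and Isg15, both induced by interferon, as its leading genes (126 cells) held it at 109 CPM. Over the 26 clusters of day 11 alone, the gene with the pattern most like Ebf2 was Pcdhb19 (0.909), like Ebf3 Rbm18 (0.856) and like Ebf4 Pygo2 (0.814), among 10710 genes.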
